A study of Mus musculus with 6 samples.

Results

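The 85 genes described here encode proteins of the cytosolic ribosome, taken by symbol from a table of 18019 genes. Symbols that start with Rpl and a digit, with Rplp0, Rplp1 and Rplp2, gave 50 genes of the large subunit. Symbols that start with Rps and a digit, with Rpsa, gave 35 genes of the small subunit. The S6 kinase genes (Rps6k) and symbols with "-ps", the mark of a pseudogene, were left out. Of the 85, 77 encode core proteins of the particle, 46 large and 31 small. Another 7 are paralogs or retrogenes of core members (Rpl3l, Rpl7l1, Rpl22l1, Rpl36al, Rps27l, Rps27rt and Rps23rg1). The last, Rps19bp1, encodes a protein that binds Rps19 and is no ribosomal protein itself. The rule misses Fau, which encodes a ribosomal protein fused to a ubiquitin-like protein.

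The RNA came from RAW264.7 cells, a transformed mouse macrophage line, and was sequenced from its poly(A) fraction. All cells were induced with lipopolysaccharide (LPS). The control group (n = 3) had no further treatment, and the second group (n = 3) also received TPPU, which inhibits the enzyme soluble epoxide hydrolase. Doses, times and the origin of replicates in separate cultures are not given in the labels, so the tests below measure the spread among 3 libraries a group, and that spread may be technical only. Values are FPKM, fragments scaled to transcript length and library depth, so that genes of different length can be compared.

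Each ribosome carries a single copy of nearly every core protein. The main exception is the Rplp1 and Rplp2 proteins of the stalk, which is made of Rplp0, Rplp1 and Rplp2 proteins. Most mRNAs of these proteins start with a run of pyrimidines, the 5′ terminal oligopyrimidine tract. Through it mTORC1 and the RNA-binding protein LARP1 set their translation and protect them from decay. In macrophages LPS is known to activate mTORC1, and several ribosomal proteins have roles outside the ribosome in the control of NF-κB, p53 and inflammatory mRNAs.

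Start-site sequences are shown for 8 members that the results below turn on, to make visible starts with and without a pyrimidine run. Each covers 10 bases before the annotated start and 20 from it, from RefSeq on GRCm38.p6, read 5′ to 3′ on the gene's strand. Capitals mark the longest run of C or T where it reaches 8 bases. The first 5 have such a run and the last 3 do not.
Rpl14 (chr9:120571507-120571536, plus strand): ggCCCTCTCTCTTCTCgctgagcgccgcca
Rps6 (chr4:86857348-86857377, minus strand): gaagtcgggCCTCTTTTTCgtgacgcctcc
Rplp2 (chr7:141447641-141447670, plus strand): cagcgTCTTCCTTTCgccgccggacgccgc
Rps27 (chr3:90213629-90213658, minus strand): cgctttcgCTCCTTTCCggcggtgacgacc
Rpl13a (chr7:45128726-45128755, minus strand): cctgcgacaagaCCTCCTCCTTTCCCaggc
Rps25 (chr9:44407704-44407733, plus strand): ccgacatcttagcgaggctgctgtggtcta
Rps23 (chr13:90923112-90923141, plus strand): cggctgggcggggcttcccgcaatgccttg
Rps16 (chr7:28350679-28350708, plus strand): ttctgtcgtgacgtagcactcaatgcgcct

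A start sequence was found for 65 of the 85 members, and 25 of these (38.5%) held a run of at least 8 bases that are each C or T. Where a member had more than one annotated start, a run at any of them counted. Rpl19, Rpl34, Rpl35a and Rps24 have starts with a run and starts without one. The share was 39.5% in the large subunit and 37% in the small one. Among all 9728 genes tested for a difference, 7703 had a sequence and 13.7% held such a run. The same run on the other strand, at least 8 bases that are each A or G, was found in 4.62% of members and in 14.4% of the tested genes. A run is a description of these letters at an annotated start, which need not be the start used in these cells. The 25 members with a run had a median log2 fold change of 0.12 with TPPU and the 39 tested members without one 0.14.

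All 77 core genes had reads in every library, but their levels were far apart. The median core gene measured 215 FPKM over the 6 libraries, above 98.3% of the tested genes, and the median was 202 in the large and 246 in the small subunit. Rpl4, which encodes a protein that lines the peptide exit tunnel, was the highest, at 2586 FPKM, followed by Rps3a1 at 1556. Rpl4 measured 2522, 2436 and 2464 FPKM in the controls and 2821, 2657 and 2614 with TPPU, with separate groups (log2 fold change 0.12, SE 0.07, limma adjusted p = 0.667). The stalk genes Rplp1 and Rplp0 measured 1214 and 1072 FPKM, and their partner Rplp2 98.9. The laminin-receptor gene Rpsa measured 1117 FPKM. At the other end, Rpl21 measured 1.73, Rpl24 1.84, Rpl30 4.41 and Rpl29 4.69 FPKM. The highest core gene stood 1493 times above the lowest, although the particle holds one of each.

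Ribosomal protein genes have many processed pseudogenes, and no label says how reads shared with them were assigned. In the GENCODE M21 annotation, 552 pseudogenes matched a core member at 95% identity or more over at least 80% of its coding sequence. The median core gene had 5 such copies, and 4 core genes had 0. Rpl21, the lowest core gene, had 56 copies, the most of all, and Rpl29 had 24 and Rpl30 12. Rpl7a, with 32 copies, was nonetheless at 243 FPKM, and Rpl24, with 3 copies, at 1.84. Over the 77 core genes the level had a Spearman's rho of -0.08 with the number of copies and of 0.45 with transcript length. These are descriptions over genes that share libraries and sequence. Rpl24 is among 6 members that overlap an annotated gene on the same strand, with Rpl13, Rpl13a, Rpl19, Rpl36al and Rps10. The levels of members with many copies or an overlapping gene are uncertain.

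**Figure D1:**
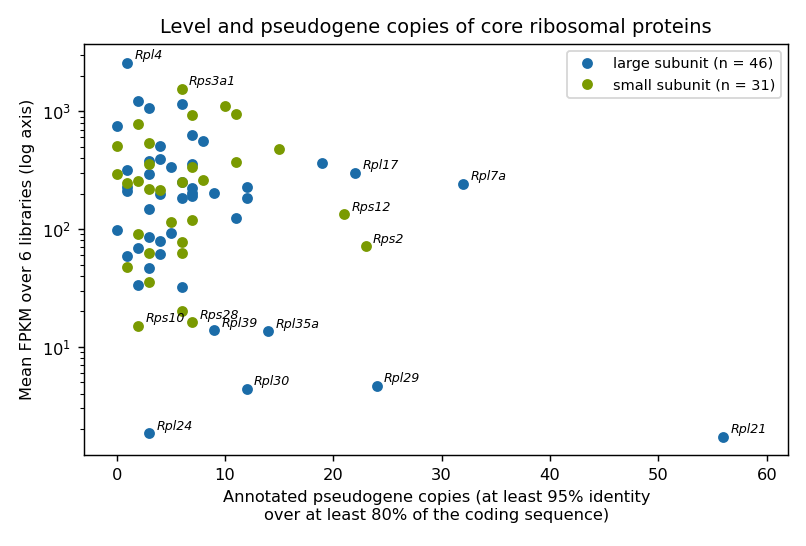
Mean level over 6 libraries (FPKM, log axis) of the 77 core genes against the number of annotated pseudogenes that match their coding sequence. Rpl21, with 56 copies, is at 1.73 FPKM, while Rpl7a, with 32, is at 243 and Rpl24, with 3, at 1.84.

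Pseudogenes listed in the table were not silent. Rps18-ps5 measured 57.6, 51.9 and 54.2 FPKM in control replicates 1, 2 and 3, and 77.7, 65.5 and 82.9 in TPPU replicates 1, 2 and 3. Its parent Rps18 measured 34.1, 31.3 and 33.3 in the controls, and 38.2, 39.5 and 35.2 with TPPU. The pseudogene row was thus the higher in every library, by a ratio of 1.63 to 2.36. Rpl9-ps6 stood at 0.348 to 0.428 of Rpl9.

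Depth, estimated from the steps between low FPKM values, was 17.8 M to 22.9 M fragments per library. At that depth 3 fragments in a transcript of 1 kb are worth 0.131 to 0.168 FPKM. Control replicate 3 stood apart from the others. Its log2 values correlated with those of other libraries at 0.958 to 0.977 over genes, and its deviations from gene means had a rho of 0.61 with GC content. That rho was 0.25 in TPPU replicate 1 and between -0.46 and -0.18 elsewhere. Mitochondrial transcripts made up 0.371% of the FPKM of control replicate 3, 0.914% of that of TPPU replicate 1 and 1.46% to 1.85% elsewhere. Of 10 macrophage markers 9 were at 1 FPKM or more, with a summed level of 1940 to 2320 in the controls and 2060 to 2170 with TPPU. Markers of T cells, B cells, fibroblasts, chondrocytes, epithelium, endothelium and red cells each averaged under 1 FPKM. All 3 hepatocyte markers were present, Alb among them, and their sum moved with the groups: 32.1 to 67.3 FPKM in the controls and 76.4 to 139 with TPPU. None of the 3 was at 0. The part of these transcripts in the differences below was not tested. The labels of the TPPU samples name columns "sh-LIS1" of a count table not used here. The LIS1 gene Pafah1b1 measured 6.52 to 14.2 FPKM in the controls and 10.7 to 14.2 with TPPU, and the groups overlapped.

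The question of the series, whether TPPU alters gene expression in LPS-induced macrophages, was put to each member by limma on log2(FPKM + 1). The Benjamini-Hochberg adjustment ran over 9728 genes that reached 1 FPKM in 3 or more libraries. All members but Rpl3l passed that filter. No member of either subunit passed the adjusted threshold of 0.05 in limma, and neither did any other gene (0% of those tested, smallest adjusted p 0.116), while 408 genes were higher and 360 lower at an unadjusted p under 0.05. At an unadjusted limma p under 0.05 there were 4 large-subunit members higher with TPPU, of 49, against 4.19% of all tested genes. In the small subunit there were 8 of 35. In the lower direction there was 1 in the large subunit, Rpl17, and 0 in the small, against 3.7% of all genes.

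Most members had small positive differences. In the large subunit 46 of 49 log2 fold changes were positive, with a median of 0.12 and quartiles of 0.05 and 0.21. With a transcript-length trend removed, 32 were positive, against 52.2% of all tested genes, and the median was 0.02. In the small subunit 32 of 35 were positive, with a median of 0.2 and quartiles of 0.05 and 0.36, or 24 and 0.12 with that trend removed. The changes ran from -0.77 to 0.69 in the large and from -0.13 to 0.75 in the small subunit. Over all tested genes 54.4% were positive and the median was 0.02. All 3 TPPU values lay above all 3 control values for 10 of 49 large-subunit members (20.4%) and 11 of 35 small-subunit members (31.4%), against 7.48% of all genes. They lay below for Rpl17 alone, and 7.88% of all genes did so. The counts of separate groups were made without the length trend removed. The comparison is also with lower genes, at a median of 8.11 FPKM over all tested genes. Tested members had medians of 198 in the large and 215 in the small subunit. Members share libraries and partly sequence, so these counts are not independent observations.

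**Figure D2:**
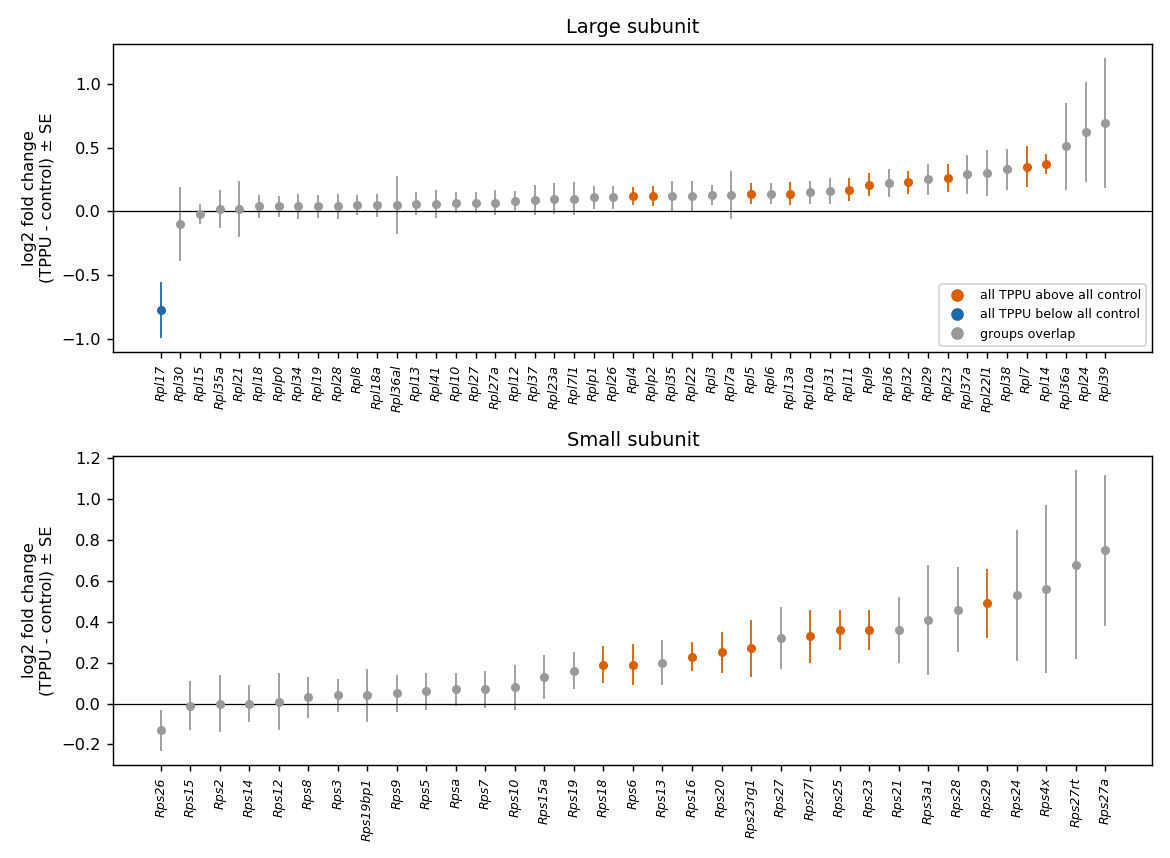
Log2 fold change of TPPU against control on the log2(FPKM + 1) scale, with its standard error from limma (n = 3 per group), for 49 large-subunit and 33 small-subunit members in order of size. The 19 orange members had all TPPU values above all control values, and Rpl17, in blue, had them all below.

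The summed level of the members was higher with TPPU in both subunits. Large-subunit members summed to 14454, 13891 and 14381 FPKM in control replicates 1, 2 and 3 and to 16063, 14544 and 15186 in TPPU replicates 1, 2 and 3. All 3 TPPU sums were above the controls, that of replicate 2 narrowly. Small-subunit members summed to 10460, 10399 and 8771 FPKM in the controls and to 11338, 11147 and 11888 with TPPU. Those groups did not overlap either, and control replicate 3 was the lowest. All members together took 7.72% to 8.35% of a control library's FPKM and 8.52% to 9.02% of a TPPU library's. By subunit, the shares of the large one overlapped, at 4.66% to 4.84% in the controls and 4.82% to 5.29% with TPPU. The shares of the small one did not, at 2.92% to 3.5% in the controls and 3.7% to 3.93% with TPPU. The ratio of large to small sums was 1.28 to 1.42 in 5 libraries and 1.64 in control replicate 3.

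Rps25, Rps23 and Rps16 were among the small-subunit members with the smallest p. Rps25, which some viral internal ribosome entry sites need, measured 227, 226 and 199 in the controls and 306, 253 and 283 with TPPU, a log2 fold change of 0.36 (SE 0.10, limma adjusted p = 0.451). Rps23, whose protein sits at the decoding centre, measured 351, 339 and 283 in the controls and 405, 403 and 432 with TPPU. In both the groups were separate, and control replicate 3 was the lowest library. Without that library their changes were 0.30 and 0.26. Rps16 measured 323, 322 and 334 FPKM in the controls and 391, 366 and 393 with TPPU, a change of 0.23 (SE 0.07, limma adjusted p = 0.554). Also under an unadjusted limma p of 0.05 were Rps29, Rps20 and Rps27l. Rps29 measured 16.2, 17.8 and 14.8 FPKM in the controls and 21.3, 19.2 and 30.8 with TPPU (0.49, SE 0.17), and Rps20 89.9, 73.5 and 87.7 in the controls and 106, 94.9 and 98 with TPPU (0.25, SE 0.10). Their groups were separate.

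In the large subunit Rpl14 had the smallest p. Rpl14, on chromosome 9 (120571444 to 120574654, plus strand, mm10), measured 195.6, 193.5 and 209.9 FPKM in control replicates 1, 2 and 3 and 257.3, 252.2 and 265.5 in TPPU replicates 1, 2 and 3. The groups were well apart, and control replicate 3 was the highest control. The log2 fold change was 0.37 (SE 0.08, limma adjusted p = 0.372), and 0.41 without control replicate 3. With control replicate 3 and TPPU replicate 1 left out limma called it (adjusted p = 0.0327), where 0.401% of all genes were called, and over all alternatives its adjusted p ranged from 0.0113 to 0.936. Its start site, printed above, carries a pyrimidine run of 14 bases, among the longer runs in the family.

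Rpl32, Rpl23 and Rpl9 were the other large-subunit members with a positive change among the 5 smallest p. Rpl32 measured 367, 343 and 364 FPKM in the controls and 456, 385 and 422 with TPPU. Rpl23 measured 205, 204 and 166 in the controls and 235, 210 and 242 with TPPU, and Rpl9 200, 190 and 175 in the controls and 234, 205 and 214 with TPPU. In each the groups were separate by a narrow margin, and TPPU replicate 2 was the lowest TPPU library. Their log2 fold changes were 0.23, 0.26 and 0.21, with limma adjusted p of 0.567, 0.627 and 0.627. Without control replicate 3 that of Rpl23 was 0.16.

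Rpl17 went the other way. It encodes a protein at the peptide exit tunnel and lies on chromosome 18 (74998558 to 75003381, plus strand, mm10). Rpl17 measured 542, 303 and 302 FPKM in control replicates 1, 2 and 3, and 197, 205 and 244 in TPPU replicates 1, 2 and 3. Control replicate 1 was far above the others, and all TPPU libraries were below all controls. The log2 fold change was -0.77 (SE 0.22, limma adjusted p = 0.47), the most negative in the family. It was -0.49 without control replicate 1, the smallest size when single libraries were left out. With libraries weighted by quality limma called it lower (-1.16, adjusted p = 0.0253), where 1.74% of all genes were called, and control replicate 1 then had a weight of 3.84. Over all alternatives its adjusted p ranged from 0.0253 to 0.969. It has 22 pseudogene copies, so its level is uncertain.

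The other members with negative changes were near 0, and all but Rps26 took a positive sign under some alternatives. Rpl30 measured 5.95, 5.44 and 2.51 FPKM in the controls and 2.6, 4.63 and 5.35 with TPPU (log2 fold change -0.10, SE 0.29). Rpl15 measured 226, 220 and 246 in the controls and 238, 215 and 227 with TPPU (-0.02, SE 0.08). Both genes had overlapping groups. Rps15 measured 782, 720 and 825 FPKM in the controls and 893, 646 and 783 with TPPU (-0.01, SE 0.12). Rps2 measured 64, 77 and 72.2 in the controls and 72.9, 84.3 and 57.5 with TPPU, a change that rounds to 0. Their groups overlapped too, and so did those of Rps26, at 218, 221 and 243 FPKM in the controls and 227, 187 and 210 with TPPU (-0.13, SE 0.10).

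Rps27a, which encodes a small-subunit protein made as a fusion with ubiquitin, split the TPPU group. Rps27a measured 187, 204 and 157 FPKM in control replicates 1, 2 and 3, and 151, 427 and 441 in TPPU replicates 1, 2 and 3. TPPU replicates 2 and 3 were far above every other library, while TPPU replicate 1 was the lowest of all 6. The log2 fold change was 0.75 (SE 0.37, limma adjusted p = 0.637). Without TPPU replicate 1 limma called it at 1.26 (adjusted p = 0.0332), among 6 genes so called in the table (0.0617%). Without control replicate 3 as well it was 1.15 (limma adjusted p = 0.00154), and over all alternatives the adjusted p ranged from 0.00154 to 0.989. Both of these fits keep only TPPU replicates 2 and 3, the libraries far above the controls. Leaving out the library that disagrees builds in the separation, so these calls cannot settle whether Rps27a differs. Rps27a has 8 pseudogene copies and overlaps Clhc1 on the opposite strand, and no label says whether counting used strand. Fau, the gene of a ubiquitin-like fusion, did not show the split, at 317, 301 and 349 FPKM in the controls and 370, 335 and 357 with TPPU.

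**Figure D3:**
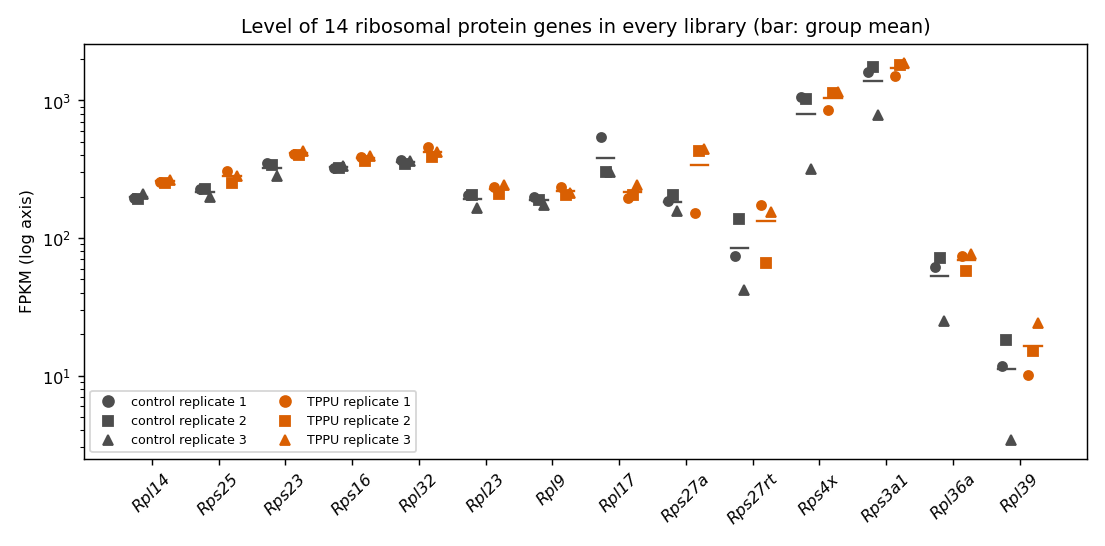
Level of 14 members in each of the 6 libraries (FPKM, log axis), with a bar at each group's mean. Rpl14 has tight groups that do not overlap, Rps27a has TPPU replicate 1 at 151 FPKM beside 427 and 441, and Rps4x has control replicate 3 at 320 FPKM beside 1060 and 1028.

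The stalk recruits the GTPase factors of translation. Rplp0 measured 1044, 997 and 1131 FPKM in the controls and 1147, 1046 and 1068 with TPPU, and Rplp1 1152, 1138 and 1214 in the controls and 1366, 1150 and 1263 with TPPU. In both genes the groups overlapped. Rplp2 measured 95.7, 93.8 and 94.5 FPKM in the controls and 103, 96.5 and 110 with TPPU, and there the groups were separate by under 1 FPKM (log2 fold change 0.12, SE 0.08, limma adjusted p = 0.72). Its change was 0.07 without TPPU replicate 3.

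Members known for roles outside the ribosome had small differences. Rps6, the substrate of the S6 kinases, measured 956, 941 and 752 FPKM in the controls and 1019, 971 and 1016 with TPPU. The groups were separate, with control replicate 3 lowest, and the log2 fold change of 0.19 (SE 0.10) became 0.08 without that library. Rps3, whose protein is known in human cells as a partner of the NF-κB subunit RELA, measured 284, 280 and 302 FPKM in the controls and 309, 286 and 297 with TPPU. Those groups overlapped, and the change was 0.04 (SE 0.08, limma adjusted p = 0.892). The proteins of Rpl5 and Rpl11 bind MDM2 and hold it from p53. Rpl5 measured 317, 331 and 315 FPKM in the controls and 332, 362 and 370 with TPPU, and Rpl11 175, 166 and 177 in the controls and 216, 184 and 185 with TPPU. Both were separate between groups, with log2 fold changes of 0.14 (SE 0.08) and 0.17 (SE 0.09) and a limma adjusted p of 0.664 each. Without TPPU replicate 1, its highest library, the change of Rpl11 was 0.09. Rpl13a, whose protein blocks translation of inflammatory mRNAs in human monocytes, measured 32.7, 31.2 and 31.7 FPKM in the controls and 36.6, 36.5 and 32.8 with TPPU (log2 fold change 0.14, SE 0.09, limma adjusted p = 0.699). Rpsa measured 1093, 1006 and 1177 in the controls and 1202, 1124 and 1101 with TPPU, and its groups overlapped.

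The paralogs were low beside their core relatives, apart from those of Rps27. Rpl22l1 measured 0.0751 to 0.114 of Rpl22, Rpl7l1 0.031 to 0.0653 of Rpl7 and Rpl36al 0.011 to 0.0415 of Rpl36a in the 6 libraries. The retrogene Rps23rg1 measured 1.22, 1.15 and 1.04 FPKM in the controls and 1.92, 1.31 and 1.53 with TPPU, beside 283 to 432 for Rps23. It is among the lowest members, and its groups were separate. Rpl3l, a striated-muscle form of Rpl3, measured 0.413, 0 and 0.0319 FPKM in the controls and 0.0334, 0 and 0.0287 with TPPU (exact permutation test, two-sided p = 0.7, where the smallest possible p is 0.1). Its relative Rpl3 measured 362, 331 and 341 in the controls and 398, 356 and 375 with TPPU, with overlap. Rpl22l1 had 5.74, 4.8 and 4.16 FPKM in the controls and 6.87, 4.63 and 7.58 with TPPU, and the groups overlapped. Its relative Rpl22 measured 56.6, 57.9 and 55.4 in the controls and 68.7, 51.2 and 66.7 with TPPU. Rpl36al measured 1.3, 1.97 and 1.04 FPKM in the controls and 0.812, 1.88 and 1.98 with TPPU, and Rpl36a 61.7, 71.6 and 25.1 in the controls and 73.7, 57.5 and 76.9 with TPPU. These groups overlapped as well, and Rpl36a was lowest in control replicate 3. Rpl7l1 measured 21.3, 19.7 and 26.7 FPKM in the controls and 26.5, 23.7 and 22.3 with TPPU, with overlap. Its relative Rpl7 measured 632, 630 and 409 in the controls and 649, 727 and 719 with TPPU, with separate groups (log2 fold change 0.35, or 0.14 without control replicate 3).

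Rps27l, a p53 target in human cells, held a steady ratio to Rps27, between 0.639 and 0.741 in all libraries. Rps27l measured 43, 42.8 and 32.1 FPKM in the controls and 45.8, 48.8 and 53.7 with TPPU, and the groups were separate (log2 fold change 0.33, SE 0.13, limma adjusted p = 0.591). The change was 0.20 without control replicate 3, its lowest library. Rps27 measured 67.4, 57.7 and 43.6 in the controls and 68.1, 66.4 and 73.2 with TPPU, and there they overlapped. The retrogene Rps27rt behaved differently, at 73.8, 138 and 41.6 FPKM in the controls and 175, 66.1 and 154 with TPPU. Its ratio to Rps27 was 0.954 to 1.09 in control replicates 1 and 3 and TPPU replicate 2, and 2.11 to 2.56 in the other libraries. Rps27 and Rps27rt are near copies, so reads may have been divided between them. The binding protein gene Rps19bp1 measured 14.4 ± 2.44 FPKM in the controls and 14.7 ± 0.171 with TPPU (SD, n = 3), and its partner Rps19 59.3 ± 2.97 in the controls and 66.7 ± 4.64 with TPPU.

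Control replicate 3 was low in part of the family. In 12 tested members it lay under 0.67 of the median of the other 5 libraries, against 12.9% of all tested genes (12 of 84 members is close to that share). Rps4x measured 1060, 1028 and 320 FPKM in control replicates 1, 2 and 3 and 855, 1138 and 1149 with TPPU. Rps3a1 measured 1605, 1753 and 781 in the controls and 1518, 1798 and 1878 with TPPU, and Rpl39 11.8, 18.1 and 3.4 in the controls and 10.1, 15.2 and 24 with TPPU. In each of these the other controls were near the TPPU libraries. Without control replicate 3 the log2 fold change fell from 0.56 to -0.01 for Rps4x, from 0.41 to 0.04 for Rps3a1 and from 0.69 to 0.08 for Rpl39. The 12 members had a median GC content of 48.3%, and the other tested members 52.5%. Over 83 members the ratio had a rho of 0.5 with GC content, a description over genes of the same libraries.

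**Figure D4:**
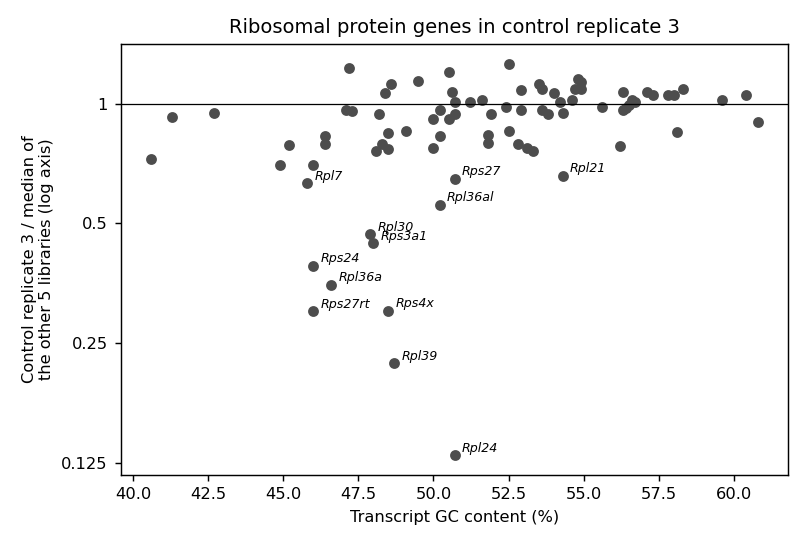
Level in control replicate 3 divided by the median of the other 5 libraries (log axis), against transcript GC content, for 83 tested members with an annotated transcript. The 12 named members lie under 0.67, down to 0.131 for Rpl24, and the members with the highest GC content lie near 1.

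The size of the family's difference varied with GC content and length in some libraries, a trend also seen over all tested genes. The log2 fold change had a rho with GC content of -0.38 over members and -0.29 over all tested genes. Without control replicate 3 the rho over members was -0.06. With length the rho was -0.16 over members and -0.16 over all tested genes. The 16 members under 48% GC had a median log2 fold change of 0.30, the 41 between 48% and 54% one of 0.14, and the 26 over 54% one of 0.06. In the low-GC members control replicate 3 had a median deviation from the gene mean of -0.33 on the log2 scale, and the other controls -0.03 and -0.01. By length, the 32 members under 600 nt had a median change of 0.19, the 27 from 600 to 900 nt one of 0.07 and the 24 longer ones 0.13. In the short members TPPU replicates 1 and 3 deviated by 0.18 and 0.20, and TPPU replicate 2 by -0.06, near the controls. Rps28 shows this pattern, at 13.1, 14.9 and 11.8 FPKM in the controls and 20.6, 12.8 and 23.9 with TPPU.

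The median changes of the subunits moved with the length trend and little with the GC trend. That of the small subunit also moved when control replicate 3 was left out. With the length trend removed they were 0.02 in the large and 0.12 in the small subunit, beside 0.01 over all tested genes. With a GC trend removed the medians were 0.11 and 0.21, and limma then called 0 members and 0.0822% of all genes. Without control replicate 3 they were 0.12 and 0.13, and without control replicate 3 and TPPU replicate 1 they were 0.08 and 0.13. The difference between subunits was not tested.

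**Figure D5:**
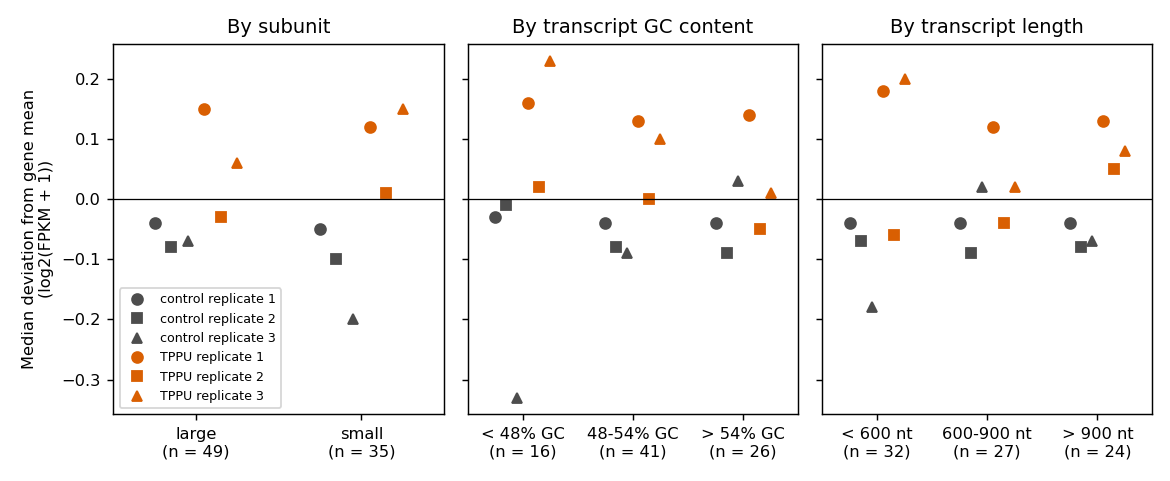
Median deviation of members from their mean over the 6 libraries (log2(FPKM + 1)), by subunit, by transcript GC content and by transcript length, with one point for each library. Control replicate 3 lies at -0.33 in the members under 48% GC, and TPPU replicate 2 at -0.06 in those under 600 nt, beside 0.18 and 0.20 for TPPU replicates 1 and 3.

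Other genes of the translation machinery were read from lists written from general knowledge. No member of any of the lists passed the adjusted threshold in limma. All 9 tested elongation factor genes had positive changes, against 54.4% of all tested genes, with a median of 0.15. Of the 9, 1 was higher at an unadjusted limma p under 0.05, against 4.19% of all tested genes. Eef1g, a subunit of the complex that reloads the elongation factor with GTP, measured 462, 459 and 471 FPKM in the controls and 580, 539 and 530 with TPPU (log2 fold change 0.24, SE 0.07, limma adjusted p = 0.514). Eif5a, which helps the ribosome past stalling sequences, measured 342, 328 and 348 in the controls and 403, 368 and 374 with TPPU. Both had separate groups. Of 22 other genes whose mRNAs are known for an oligopyrimidine tract, 20 were positive, with a median of 0.14, and 2 were higher and 1 lower at an unadjusted p under 0.05 (4.19% and 3.7% of all tested genes). The exception with the smallest p was Vim, which encodes the filament protein vimentin, at 202, 198 and 211 FPKM in the controls and 150, 150 and 157 with TPPU (log2 fold change -0.42, SE 0.08, limma adjusted p = 0.273). The 2 lists share the 5 elongation factor genes that carry the tract.

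Among 70 genes of rRNA processing and ribosome assembly, 55 were positive and 15 negative, with a median of 0.13, or 0.06 without control replicate 3. At an unadjusted p under 0.05 there were 5 higher and 0 lower, where 4.19% of all tested genes were higher and 3.7% lower. Nop10 and Nhp2, both of the particle that modifies uridines in rRNA, measured 18.1 ± 0.548 and 32.6 ± 2.7 FPKM in the controls and 23.7 ± 3.02 and 40.2 ± 2.78 with TPPU (SD, n = 3). Their limma adjusted p was 0.511 and 0.564. For 15 genes of RNA polymerase I and its factors the median was 0.02, the same as over all tested genes, with 8 positive and 7 negative and 0 at an unadjusted p under 0.05. Its smallest p were those of Taf1c, 2.83 ± 0.535 FPKM in the controls and 2.07 ± 0.671 with TPPU, and Polr1d, 47.6 ± 2.3 and 43 ± 2 (SD, n = 3). For 22 genes of mTORC1, LARP1 and the S6 kinases it was 0, with 10 positive and 12 negative. Larp1 itself measured 23.1 ± 1.27 FPKM in the controls and 20.5 ± 0.511 with TPPU (log2 fold change -0.16, SE 0.09, limma adjusted p = 0.668), and Rps6kb1, the S6 kinase gene, 5.09 ± 1.09 and 5.41 ± 0.801. In that list 1 gene was higher at an unadjusted limma p under 0.05, against 4.19% of all tested genes. This was Cnbp, which encodes a protein that binds the oligopyrimidine mRNAs. It measured 147, 155 and 109 FPKM in the controls and 166, 183 and 187 with TPPU, and Larp1b 3.49, 3.29 and 1.97 in the controls and 3.71, 3.72 and 4.18 with TPPU.

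The remaining lists were small. For 9 chaperones and import factors of single ribosomal proteins the median was 0.16, or 0.04 without control replicate 3, with 5 positive and 4 negative. Bccip was the only gene of the list with an unadjusted limma p under 0.05, where 4.19% of all tested genes were higher. It measured 37.2 ± 2.59 FPKM in the controls and 45.2 ± 3.41 with TPPU, and Kpnb1 71.1 ± 9.13 and 80.2 ± 2.72 (SD, n = 3). For 15 host genes of small nucleolar RNAs it was 0.10, or -0.04 without control replicate 3, with 10 positive and 5 negative. Zfas1 measured 4.53, 5.14 and 4.63 FPKM in the controls and 6.2, 6.42 and 6.61 with TPPU, with separate groups (log2 fold change 0.36, SE 0.10, limma adjusted p = 0.478). Snhg6 measured 11.6, 11.4 and 7.74 in the controls and 13.6, 13.4 and 12.1 with TPPU, and its change was 0.34, or 0.17 without control replicate 3.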

How the data were processed

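Poly(A) RNA of 6 libraries was sequenced with a strand-marking (dUTP) kit, per the labels' protocols. The values are FPKM per gene as deposited by the authors, on mm10 per the submitters' processing notes. For the aligner, the counter and the gene annotation, the name is not given in the sources used here. FPKM are not counts, so limma 3.58.1 (R 4.3.3, mean-variance trend) was run on log2(FPKM + 1). Such fold changes understate those of low genes. The filter of 1 FPKM in at least 3 libraries left 9728 genes of 18019, and 8291 were left out. An adjusted p under 0.05 counted as a call. The fit was tested on simulated data. Depth came from the steps of low values, of which 91.4% to 92.4% were whole within 0.1 (20% by chance).

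Lengths, GC content, positions and pseudogenes came from GENCODE M21, which matched 84 of 85 members and 97.9% of tested genes. Copies were found with blastn 2.17.0 and start sequences in RefSeq (GRCm38.p6). Members and lists were chosen with earlier results of these data known. The limits for classes of length, GC content and copies were set after the values were seen. Genes named with values were the 5 smallest p per subunit, members with negative changes, the highest and lowest levels, paralog pairs and ubiquitin fusions (Rps27a and Fau), stalk genes, Rps6, Rpsa, Rps3, Rpl5, Rpl11 and Rpl13a, and the 2 smallest p of each other list. Rps28, Rps29, Rps20, Rps4x, Rps3a1, Rpl39, Rps18 and the pseudogene rows were chosen after their values were seen, and so were Larp1 and Rps6kb1. Some genes that this rule names are not reported here. Alternatives changed the pseudocount, filter, scaling, limma settings, length and GC trends, and the libraries used.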

Additional observations from a re-analysis of the deposited data

How the results depend on the processing

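Calls depended on which libraries were trusted. Quality weights gave limma calls for 169 genes, among them 2 large-subunit members (Rpl14 and Rpl17) and 1 small-subunit member. Without control replicate 3 and TPPU replicate 1 there were 39 calls, 1 in the large subunit (Rpl14) and 2 in the small, Rps27a among them. A GC trend removed gave 8 calls and no member. With single libraries left out there were 0 to 6 calls, 0 in the large subunit and 0 to 1 in the small (Rps27a, without TPPU replicate 1). Medians moved with the length trend removed, to 0.02 in the large and 0.12 in the small subunit. With single libraries left out they ranged from 0.09 to 0.14 in the large and from 0.13 to 0.25 in the small subunit. Signs turned for genes near 0. With the GC trend removed Rpl15 was 0.01, Rps15 0.02 and Rps2 0.03. With the length trend removed Rpl36al was -0.05, Rplp0 -0.01 and Rps19bp1 -0.04. Rps15 was 0.05 under quantile normalization and Rps2 0.14 under quality weights. With single libraries left out Rpl15 ranged from -0.06 to 0.02, Rpl30 from -0.41 to 0.15, Rpl36al from -0.08 to 0.28, Rplp0 from 0 to 0.09, Rps15 from -0.12 to 0.11, Rps19bp1 from -0.09 to 0.14 and Rps2 from -0.13 to 0.14. The cause was not tested. Deviations from group means correlated at -0.301, 0.154 and -0.399 between same-numbered libraries, which cannot settle whether replicate numbers pair the samples. The highest value, 0.506, was between control replicate 3 and TPPU replicate 1. Both had deviations from gene means that rose with GC content (rho 0.61 and 0.25). Those of the other libraries fell with it (rho between -0.46 and -0.18). A replicate block gave 0 calls. Low members such as Rpl3l rest on few fragments.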

Other observations

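Within the bounds of 30 members, on the same strand, lie 58 annotated small nucleolar RNA genes. The 30 hosts had a median log2 fold change of 0.11 with TPPU, and the 53 other tested members with an annotation 0.16. These are descriptions, and the difference was not tested. The members lie on 19 chromosomes, and 4 are X-linked (Rpl10, Rpl36a, Rpl39 and Rps4x). Of these 4, Rpl36a, Rpl39 and Rps4x were among the 12 members that were low in control replicate 3, where 12.9% of all tested genes were low. Their GC content was 46.6%, 48.7% and 48.5%. A link to the X chromosome was not tested.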
